A study of Mus musculus with 8 samples.

Results

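The 10 apolipoprotein genes Apoa1, Apoa2, Apoa4, Apoa5, Apob, Apoc1, Apoc2, Apoc3, Apoe and Apoh were taken by gene name from a count table of 27277 mouse genes, and each name matched 1 row. All 10 passed the filter on low counts, together with 15135 genes in all. The counts came from 3 knockout and 3 control RNA libraries of mouse primary hepatocytes, and 1 knockout and 1 control chromatin immunoprecipitation (ChIP) library gave lists of enriched regions. Knockout cells had the genotype Lcmr1f/f * albumin-cre, in which Cre recombinase from the albumin promoter deletes the floxed gene in hepatocytes, and control cells carried the floxed alleles without Cre (Lcmr1f/f). The deleted gene, listed in the count table under its current name Med19, encodes part of Mediator, a large coactivator that bridges transcription factors and RNA polymerase II. Cells of both genotypes were cultured for 24 h and given 100 nM glucagon for 12 h, so every value below is from glucagon-treated cells and the response to the hormone cannot be read. Ages and the number of animals are not given in the labels, so the p-values reflect variation among these libraries, which may be technical.

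Apolipoproteins are the protein parts of the particles that carry lipid in blood. Hepatocytes build very low density lipoprotein around apolipoprotein B and release most of the circulating apolipoprotein A-I, the main protein of high density lipoprotein. The small exchangeable apolipoproteins move between particles and set how fast lipoprotein lipase empties them and how fast receptors clear them. Several of the genes lie side by side: Apoa1, Apoc3, Apoa4 and Apoa5 form a cluster on mouse chromosome 9, and Apoc2, Apoc4, Apoc1 and Apoe form another on chromosome 7.

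The start-site sequences below show where the enriched regions of the control ChIP library lay at 5 of the genes. These genes were chosen because they include 3 genes of the chromosome 9 cluster, of which Apoa1 and Apoa5 fell in knockout cells and Apoa4 did not. Also included are Apoa2, the gene with the largest fall, and Apob, the gene with the longest enriched region. Each window is from RefSeq (GRCm38.p6, the mm10 build), runs 5′ to 3′ on the gene's strand from 250 bases before to 50 bases after an annotated start, and all 5 genes are on the plus strand. Capitals mark the bases inside a control ChIP region.
Apoa1, chr9:46228380-46228679: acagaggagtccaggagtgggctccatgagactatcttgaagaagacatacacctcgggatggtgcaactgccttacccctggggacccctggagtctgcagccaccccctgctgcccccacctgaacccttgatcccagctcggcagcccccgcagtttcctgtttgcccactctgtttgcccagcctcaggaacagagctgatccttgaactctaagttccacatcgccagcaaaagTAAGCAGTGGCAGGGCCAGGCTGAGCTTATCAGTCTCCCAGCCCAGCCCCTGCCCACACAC
Apoa4, chr9:46240594-46240893: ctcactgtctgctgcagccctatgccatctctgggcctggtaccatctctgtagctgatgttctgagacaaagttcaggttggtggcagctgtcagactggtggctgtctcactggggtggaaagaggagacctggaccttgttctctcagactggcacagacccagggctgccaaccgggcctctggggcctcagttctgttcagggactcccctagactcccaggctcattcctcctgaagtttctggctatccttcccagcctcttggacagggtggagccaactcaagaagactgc
Apoa5, chr9:46268383-46268682: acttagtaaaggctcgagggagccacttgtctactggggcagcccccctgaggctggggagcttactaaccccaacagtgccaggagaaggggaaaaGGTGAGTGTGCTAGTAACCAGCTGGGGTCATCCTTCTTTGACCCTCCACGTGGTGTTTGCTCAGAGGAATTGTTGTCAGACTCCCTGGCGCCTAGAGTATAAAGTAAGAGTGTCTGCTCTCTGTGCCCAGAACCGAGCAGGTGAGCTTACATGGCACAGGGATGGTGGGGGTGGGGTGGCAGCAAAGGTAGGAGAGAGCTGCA
Apoa2, chr1:171224804-171225103: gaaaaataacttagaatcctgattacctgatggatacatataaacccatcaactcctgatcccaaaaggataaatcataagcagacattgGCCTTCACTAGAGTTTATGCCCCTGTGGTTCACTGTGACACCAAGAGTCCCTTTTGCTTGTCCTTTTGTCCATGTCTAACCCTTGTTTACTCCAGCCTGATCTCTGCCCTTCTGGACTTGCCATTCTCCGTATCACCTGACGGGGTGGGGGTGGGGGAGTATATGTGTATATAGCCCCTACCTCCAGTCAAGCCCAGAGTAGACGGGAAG
Apob, chr12:7977427-7977726: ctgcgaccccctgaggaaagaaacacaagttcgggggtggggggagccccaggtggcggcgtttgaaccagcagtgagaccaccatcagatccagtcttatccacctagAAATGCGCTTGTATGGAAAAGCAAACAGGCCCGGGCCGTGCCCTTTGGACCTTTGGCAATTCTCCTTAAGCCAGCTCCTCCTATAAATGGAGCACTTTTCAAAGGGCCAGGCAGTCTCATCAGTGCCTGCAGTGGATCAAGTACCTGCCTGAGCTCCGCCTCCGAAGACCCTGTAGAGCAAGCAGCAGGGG
The control region held 61 of these bases at Apoa1, 0 at Apoa4, 203 at Apoa5, 210 at Apoa2 and 191 at Apob, while knockout regions held 18 at Apoa1, 109 at Apob and 0 at the other 3. RefSeq windows were found for 8 of the 10 genes, 12 windows in all, and Apoc1 and Apoc3 had none. The letters TATAAA, the core of a TATA box, were searched on both strands and lay 212 bases before the start in the Apoa2 window, 56 in the Apoa5 window and 60 in the Apob window printed here. TATAAA is also found in 13.6% of the 32851 windows of the RefSeq table, so its presence is a description of these sequences. None of CAAAGTCCA, a form of the HNF4A site, TTGCGCAA or TTGCACAA, forms of the C/EBP site, and TGACGTCA, the cyclic AMP response element, was found in the 12 windows. These letters occur in 0.475%, 0.183%, 1.01% and 1.79% of all windows, in the same order.

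Total counts per library ranged from 25305697 to 26344039 in knockout cells and from 22191786 to 26595249 in control cells. Med19 had 90, 166 and 97 counts in knockout replicates 1 to 3 and 154, 226 and 248 in control replicates 1 to 3, a change of -1.50 ± 0.31 (SE) in log2 units, with an adjusted p of 0.012 by the edgeR quasi-likelihood test. Without knockout replicate 1 the same edgeR test gave -1.35 with an adjusted p of 0.0505 for Med19 (range over the alternatives 5.46e-05 to 0.0505). Control replicate 1 stood apart from the other control libraries: its counts differed from those of control replicates 2 and 3 by a chi-square per degree of freedom of 150 and 143, against 7.41 between control replicates 2 and 3, and 27.3 to 54.7 among the knockout libraries. For the apolipoprotein genes, values that rest on this library are given with and without it. Hepatocyte markers were present in both groups, but 11 of 12 were called lower and 0 higher in knockout cells (edgeR; 0 higher at an unadjusted p under 0.05 and 0 by DESeq2), and their summed level was 27557 to 37509 CPM (counts scaled to a common library size) in knockout libraries against 113827 to 123282 CPM in control libraries. Macrophage and Kupffer cell markers summed to 853 to 1012 CPM in knockout libraries and 433 to 534 CPM in control libraries, with 11 of 16 called higher and 0 lower (edgeR; 0 lower at an unadjusted p under 0.05 and 0 by DESeq2). The sum of 10 endothelial markers was 329 to 495 CPM in knockout libraries and 293 to 346 CPM in control libraries. It was 235 to 282 CPM in knockout and 121 to 244 CPM in control libraries for 10 stellate and fibroblast markers, and 49.5 to 75.6 CPM in knockout and 40.9 to 167 CPM in control libraries for the cholangiocyte markers. No tested gene of the marker lists was at 0 in all libraries of a group, and in bulk RNA fewer hepatocytes and less RNA per hepatocyte cannot be told apart. The part of these marker differences in the apolipoprotein results was not tested.

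Of the 10 apolipoprotein genes, 7 were called lower and 0 were called higher in knockout cells (edgeR quasi-likelihood test, adjusted p under 0.05 over all 15135 genes), where 13% of all genes tested were called lower and 12.6% higher. At an unadjusted p under 0.05, 1 member was higher, Apoa4, and DESeq2 also called that 1. The genes that fell were Apoa1, Apoa2, Apoa5, Apob, Apoc1, Apoc3 and Apoe, by log2 fold changes of -0.64 to -1.60. Falls of this size were common among abundant genes: of 122 genes with a mean of at least 1000 CPM, 75.4% were called lower and 4.1% higher, and 5 of the 6 apolipoprotein genes in that range were called lower. The median log2 fold change was -0.84 for the 10 genes, -1.0 for the 122 abundant genes and 0.01 for all genes tested. In 8 members every knockout CPM was below every control CPM, as in 22.4% of genes tested, in 1 every knockout CPM was above, as in 23.5%, and in 1 the groups overlapped.

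**Figure D1:**
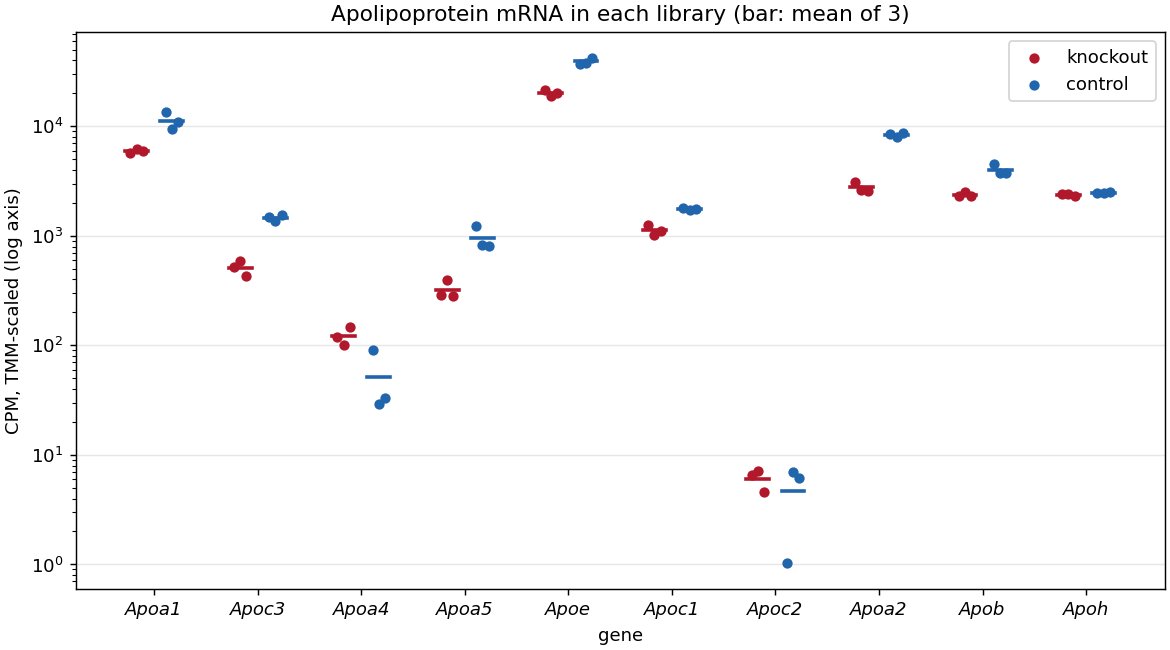
CPM of each apolipoprotein gene in the 3 knockout libraries (red, left of each pair) and the 3 control libraries (blue, right of each pair), on a log axis with bars for group means; CPM is scaled by TMM and not by transcript length, so heights of different genes are not comparable. Red and blue points are separate for 9 genes and mixed for Apoc2, and the lone high control point of Apoa4 is control replicate 1.

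How large these changes are depends on how the libraries are scaled. TMM scaling, which sets the bulk of genes to no change, gave factors of 1.215, 1.196 and 1.269 for the knockout libraries and 0.7727, 0.8377 and 0.8374 for the control libraries. With library size alone the median of all genes tested was 0.60, and 4.08% of genes were called lower and 50.9% higher. Under that scaling Apoa2, Apoa5, Apoc3 and Apoe were still called lower by edgeR, Apoa4 and Apoh were called higher, and the median of the 10 genes was -0.24. Among the 122 abundant genes 50% were then called lower and 13.9% higher. Apoa1, Apob and Apoc1 kept a negative log2 fold change with library size alone, -0.33, -0.16 and -0.05, but were not called by edgeR (adjusted p of 0.0632, 0.25 and 0.739). The 10 genes together held 4.39 ± 0.205% of all gene counts in knockout libraries and 5.69 ± 0.342% in control libraries (SD, n = 3 each), each a share of the library's own total, which is the scaling by library size alone. The libraries held 4.50, 4.15 and 4.51% in knockout replicates 1 to 3 and 5.49, 5.49 and 6.08% in control replicates 1 to 3, so the groups did not overlap. An exact two-sided permutation test gave p = 0.1 for this difference of -1.30 percentage points, the smallest p that 3 against 3 libraries allow.

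**Figure D2:**
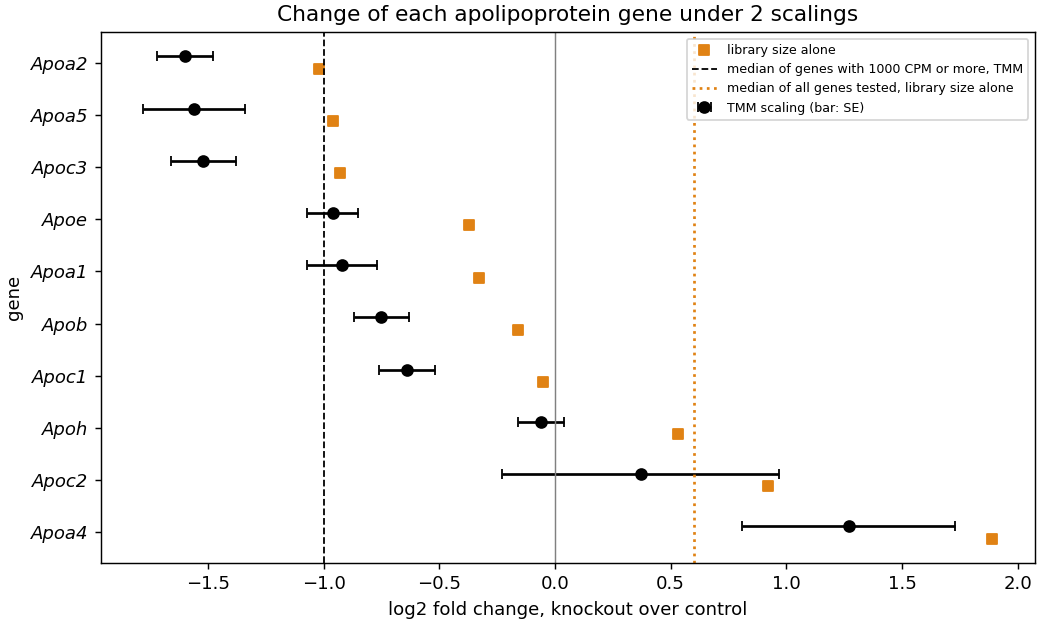
Log2 fold change (knockout over control) of each apolipoprotein gene from edgeR with TMM scaling (black circles, bars are SE) and with library size alone (orange squares), with the median of the 122 abundant genes under TMM (dashed, -1.0) and the median of all genes tested under library size alone (dotted, 0.60). Each gene lies further right with library size alone, and Apoh changes side of 0, from -0.06 with TMM to 0.53.

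Among the structural proteins, Apob, the non-exchangeable backbone of very low density lipoprotein (ENSMUSG00000020609, chromosome 12, 7977648 to 8016835, plus strand, mm10 as are all positions here), fell modestly. Apob had 2312, 2530.5 and 2322 CPM in knockout replicates 1 to 3 and 4572, 3726 and 3749 CPM in control replicates 1 to 3. All 3 knockout values lay below the control values, and control replicate 1 was the highest. The log2 fold change of Apob was -0.75 ± 0.12 (SE) with an adjusted p by edgeR of 0.00513, and -0.65 without control replicate 1.

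Apoa1, which encodes the main high density lipoprotein protein and an activator of the cholesterol-esterifying enzyme LCAT (ENSMUSG00000032083, chromosome 9, 46228580 to 46230466, plus strand), had 5733, 6159.8 and 6005 CPM in knockout libraries against 13596, 9451 and 10889 CPM in control libraries. The coefficient of variation was 3.62% among knockout libraries and 18.6% among control libraries, and the groups did not overlap. This is a log2 fold change of -0.92 ± 0.15 (SE), with an adjusted p of 0.00459 by edgeR. Without control replicate 1, the highest control library for Apoa1, it was -0.77. Apoa2, for the second high density lipoprotein protein (ENSMUSG00000005681, chromosome 1, 171225054 to 171226379, plus strand), had the largest fall of the 10 genes under TMM scaling. Its levels were 3078, 2636 and 2593 CPM in knockout libraries and 8575, 7940.4 and 8743 CPM in control libraries, 0.329 of the control mean. The log2 fold change of Apoa2 was -1.60 ± 0.12 (adjusted p = 0.000339, edgeR), it stayed between -1.70 and -1.02 over 12 alternatives, and it was called in all 12.

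Apoe, the ligand by which remnant particles bind receptors of the low density lipoprotein receptor family (ENSMUSG00000002985, chromosome 7, 19696109 to 19699188, minus strand), contributed more counts than the other 9 genes together, in counts that are not divided by transcript length. It had 659752, 594603 and 653098 counts in knockout replicates 1 to 3 and 764650, 798477 and 790537 in control replicates 1 to 3. The CPM values were 21283, 18871 and 20339 in knockout libraries, and 37208, 38037 and 42538.5 in control libraries. Every knockout library was below every control library in both units, and the log2 fold change was -0.96 ± 0.11 (adjusted p = 0.00121, edgeR), or -0.37 with library size alone (adjusted p = 0.0319, edgeR, within a range of 6.7e-12 to 0.0319 over the alternatives).

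Among the regulators of lipoprotein lipase, Apoc3 and Apoa5 had falls close in size to that of Apoa2. Apoc3, an inhibitor of the lipase and of remnant uptake (ENSMUSG00000032081, chromosome 9, 46232933 to 46235636, minus strand), had 519, 588 and 431 CPM in knockout libraries and 1474, 1363 and 1565 CPM in control libraries. Apoa5, which promotes triglyceride hydrolysis by the same lipase (ENSMUSG00000032079, chromosome 9, 46268633 to 46271919, plus strand), had 289.6, 399 and 283 CPM in knockout libraries and 1234, 818 and 807 CPM in control libraries. So an inhibitor and a promoter of the lipase were at 0.349 and 0.340 of their control means, with no overlap between groups in either gene. The log2 fold changes were -1.52 ± 0.14 for Apoc3 (adjusted p = 0.000613, edgeR) and -1.56 ± 0.22 for Apoa5 (adjusted p = 0.00269, edgeR). Without control replicate 1, the highest control library for Apoa5, they were -1.52 and -1.33. Apoc1, another inhibitor of the lipase and of receptor uptake (ENSMUSG00000040564, chromosome 7, 19689481 to 19692660, minus strand), had 1257, 1017 and 1109.6 CPM in knockout libraries and 1795, 1717 and 1761 CPM in control libraries. Its log2 fold change of -0.64 ± 0.12 was the smallest among the 7 called genes (adjusted p = 0.00742, edgeR). The differences between these genes' fold changes were not tested.

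Apoc2, the cofactor without which lipoprotein lipase is inactive (ENSMUSG00000002992, chromosome 7, 19671579 to 19677941, minus strand), had few counts, above all in control replicate 1. It had 202, 224 and 147 counts in knockout replicates 1 to 3 and 21, 146 and 114 counts in control replicates 1 to 3. In CPM these were 6.52, 7.11 and 4.58 in knockout libraries and 1.02, 6.95 and 6.13 in control libraries. The groups overlapped with and without control replicate 1, and the log2 fold change of 0.37 ± 0.60 had an adjusted p by edgeR of 0.684. Without control replicate 1 it was -0.11 (adjusted p = 0.739, edgeR, against 0.235 to 0.856 over all alternatives), so its direction rests on that library. RefSeq lists a transcription unit, Gm44805, from 19671579 to 19681460 that spans the whole of Apoc2 and is not a row of the count table, and the sources used here do not say how reads shared by both were counted, so the level of Apoc2 is uncertain.

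Apoa4, for a protein of chylomicrons and high density lipoprotein that is made mostly in the intestine and rises in mouse liver on fasting (ENSMUSG00000032080, chromosome 9, 46240696 to 46243459, plus strand), ran against the other members. It had 3733, 3202 and 4707 counts in knockout replicates 1 to 3 and 1865, 614 and 612 counts in control replicates 1 to 3. These are 120.4, 102 and 147 CPM in knockout libraries and 90.8, 29.2 and 32.9 CPM in control libraries. All 3 knockout values were above all 3 control values, but control replicate 1 was close to them and the coefficient of variation was 18.4% in knockout cells and 67.7% in control cells. The log2 fold change of 1.27 ± 0.46 had an adjusted p by edgeR of 0.0899 and was not called. Without control replicate 1 it was 1.98 with an adjusted p by edgeR of 9.18e-05, and with library size alone 1.89 with an adjusted p by edgeR of 0.0114, while the range over 12 alternatives was 9.18e-05 to 0.264. In that fit without control replicate 1, 16% of genes tested were called lower and 15.3% higher. The authors' deposited table gives Apoa4 a log2 fold change of 1.25 with an adjusted p of 0.00901 and marks it significant. An unnamed transcript on the opposite strand, AC116503.1, overlaps 1337 bases of Apoa4 and had 73, 145 and 5 counts in knockout libraries and 321, 8 and 0 in control libraries, and since the strand setting of the counting is unknown, reads of the pair cannot be told apart.

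Apoh, for beta-2-glycoprotein I, which binds negatively charged phospholipids (ENSMUSG00000000049, chromosome 11, 108343354 to 108414396, plus strand), had the smallest log2 fold change of the 10 genes. It had 2425, 2389 and 2314 CPM in knockout libraries and 2456, 2444 and 2515 CPM in control libraries. The values did not overlap, with coefficients of variation of 2.38% in knockout cells and 1.54% in control cells, but the log2 fold change was -0.06 ± 0.10 (adjusted p = 0.701, edgeR). The raw counts ran the other way, with 75166, 75289 and 74301 in knockout replicates 1 to 3 against 50466, 51300 and 46739 in control replicates 1 to 3. With library size alone the log2 fold change was 0.53 (adjusted p = 0.00434, edgeR, against 0.00434 to 0.924 over the alternatives), close to the 0.60 of all genes under that scaling.

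The authors' deposited table marks 4 of the 10 genes as significant, Apoa2, Apoa4, Apoa5 and Apoc3, and gives 8 of the 10 an adjusted p under 0.05. The 4 marked genes are those with the largest log2 fold changes in either direction in that table. Apoa1, Apob, Apoc1 and Apoe were not marked although their adjusted p was under 0.05. The shares of all genes marked or under 0.05 there are not given here, so these counts have no background. The authors' deposited table lists log2 fold changes of -0.94 for Apoa1, -1.62 for Apoa2, -1.57 for Apoa5, -0.76 for Apob, -0.65 for Apoc1, -1.53 for Apoc3 and -0.97 for Apoe. Its values for Apoc2 and Apoh, 0.36 and -0.07 in the authors' deposited table, were not marked.

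Ratios of counts within a library need no scaling between libraries, and they give the makeup of the chromosome 9 cluster in each library. Apoa4 made up 1.81, 1.40 and 2.13% of the cluster's counts in knockout replicates 1 to 3 and 0.554, 0.251 and 0.248% in control replicates 1 to 3. The share of Apoc3 was 7.79, 8.11 and 6.28% in knockout libraries and 8.99, 11.7 and 11.8% in control libraries, and that of Apoa5 was 4.35, 5.50 and 4.12% against 7.53, 7.01 and 6.07%. Apoa1 took up 86.1, 85.0 and 87.5% in knockout libraries and 82.9, 81.0 and 81.9% in control libraries. The groups were apart for each of these 4 shares: Apoa1 and Apoa4 held more of the cluster in knockout cells, Apoc3 and Apoa5 less. The 4 shares add up to the whole cluster, so they are not separate observations. Apoa1 held a larger share although its own log2 fold change was -0.92 with TMM scaling. No background of such shares over other genes is given here, so they are a description only. Of the summed counts of Apoc2, Apoc1 and Apoe on chromosome 7, without Apoc4, Apoe held 94.4, 94.9 and 94.8% in knockout libraries and 95.4, 95.7 and 96.0% in control libraries, and Apoc1 5.58, 5.11 and 5.17% against 4.60, 4.32 and 3.98%.

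The summed counts of the chromosome 9 cluster relative to those of Apoc2, Apoc1 and Apoe on chromosome 7, again without Apoc4, did not separate the genotypes. The ratio was 0.295, 0.364 and 0.320 in knockout replicates 1 to 3 and 0.420, 0.293 and 0.300 in control replicates 1 to 3. Control replicate 1 was the highest of all 6 libraries and the other 2 control values lay among or below the knockout values. The mean log2 ratio was -1.62 ± 0.152 in knockout libraries and -1.59 ± 0.291 in control libraries (SD, n = 3 each), a difference of -0.0341 (exact two-sided permutation test, p = 0.9). Its sign was positive, 0.133, without control replicate 1 (exact permutation p = 0.4).

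The labels describe the ChIP target in different ways: the sample titles name an RNA polymerase, written "RNA poll III", whereas the series text names Lcmr1 itself. The regions are therefore called ChIP regions here without a named factor. Overlapping rows of each list were merged, which gave 1309 regions in the knockout list and 16995 in the control list, covering 669222 and 10414789 bases. With 1 library per genotype there is no replicate check and no test, and the fold of a region over its background is the authors' value for that list.

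A knockout region overlapped 6 of the 10 genes and a control region 8 of the 10, at an overlap of at least 1 base with the gene span. Among all genes tested 3.9% had a knockout region and 39.2% a control region, but among the 122 abundant genes the shares were 53.3% and 86.1%. The 6 genes with a knockout region were Apoa1, Apoa2, Apoa5, Apob, Apoc1 and Apoe, and the 8 with a control region were these and Apoc2 and Apoh. All 6 genes with a knockout region are among the 7 whose mRNA was called lower, but 75.4% of the 122 abundant genes were called lower too. The share called lower among all genes with a knockout region is not given here, so this overlap is a description only. Apoc3, the other of these 7, had no region in either list, and the nearest control region ended 55 bases from its 3′ end. Apoa4 also had none in either list, the nearest knockout region being 9310 bases away and the nearest control region 7818.

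**Figure D3:**
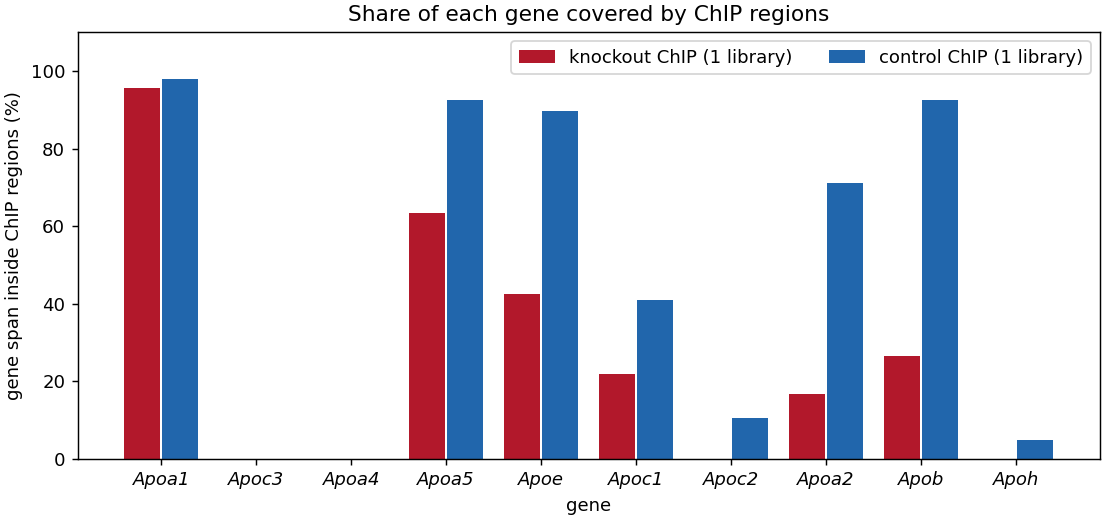
Percent of each gene's span inside merged ChIP regions, for the knockout library (red, left of each pair) and the control library (blue, right of each pair), 1 library each. Apoa1 is covered almost whole in both (95.7% and 97.9%), Apob at 26.5% in the knockout and 92.4% in the control, and Apoc3 and Apoa4 have no covered base in either.

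Coverage of the gene bodies differed in form. At Apoa1 the knockout region at chr9:46228662-46231386 covered 95.7% of the span and the control region at chr9:46228619-46232878 covered 97.9%. Its highest fold was 10.6 in the knockout list, rank 50 of 1309 regions, and 25.8 in the control list, rank 38 of 16995. Both regions ran past the gene's 3′ end towards Apoc3. Across Apob there were 23 knockout regions covering 10374 bases, 26.5% of the gene, and 8 control regions covering 36220 bases, 92.4%. The longest control region there, chr12:7977536-7991842, was 14307 bases long, whereas the longest knockout region at the locus had 1294 bases. The highest fold at Apob was 7.80 in the knockout list and 14.4 in the control list.

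Apoa5 was covered over 63.4% by knockout regions and 92.5% by control regions, with highest folds of 10.1 and 17.3. Apoe was covered over 42.4% in the knockout list and 89.8% in the control list, with highest folds of 7.44 and 15.8. Apoa2 had 1 knockout region of 222 bases, chr1:171225831-171226052, inside the gene, which covered 16.7% of it, while 2 control regions covered 71.0% including the start. Apoc1 was covered over 21.9% in the knockout list and 41.0% in the control list. In each of these genes less of the span was covered in the knockout list, which was also the shorter list genome-wide. Apoc2 had 2 control regions over 10.4% of its span and no knockout region. Apoh had 7 control regions over 4.93% of its span and no knockout region. Of the 7, 1 region, chr11:108343748-108343995, lies where the span of Apoh overlaps the neighbouring gene Prkca, and the others start at 108397563 or beyond. The RefSeq start-site window of Apoh, chr11:108395047-108395346, lies far inside this span. The 4.93% therefore includes a long stretch before that annotated start.

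Within 5 kb of the loci that held knockout regions, each of them overlapped a control region by at least 1 base. Of the knockout regions, 6 of 6 at the chromosome 9 cluster, 6 of 6 at the chromosome 7 cluster, 1 of 1 at Apoa2 and 24 of 24 at Apob overlapped a control region. In the other direction, 3 of 3 control regions at the chromosome 9 cluster overlapped a knockout region, 3 of 9 at the chromosome 7 cluster, 1 of 4 at Apoa2, 6 of 8 at Apob and 0 of 8 at Apoh. These counts take in regions over neighbouring genes. For example, the knockout region chr9:46273033-46273459 overlaps Zpr1, and the control region chr1:171220711-171221432 overlaps Tomm40l. No region of either list lay between those over Apoa1 and those over Apoa5, the stretch that holds Apoc3 and Apoa4.

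**Figure D4:**
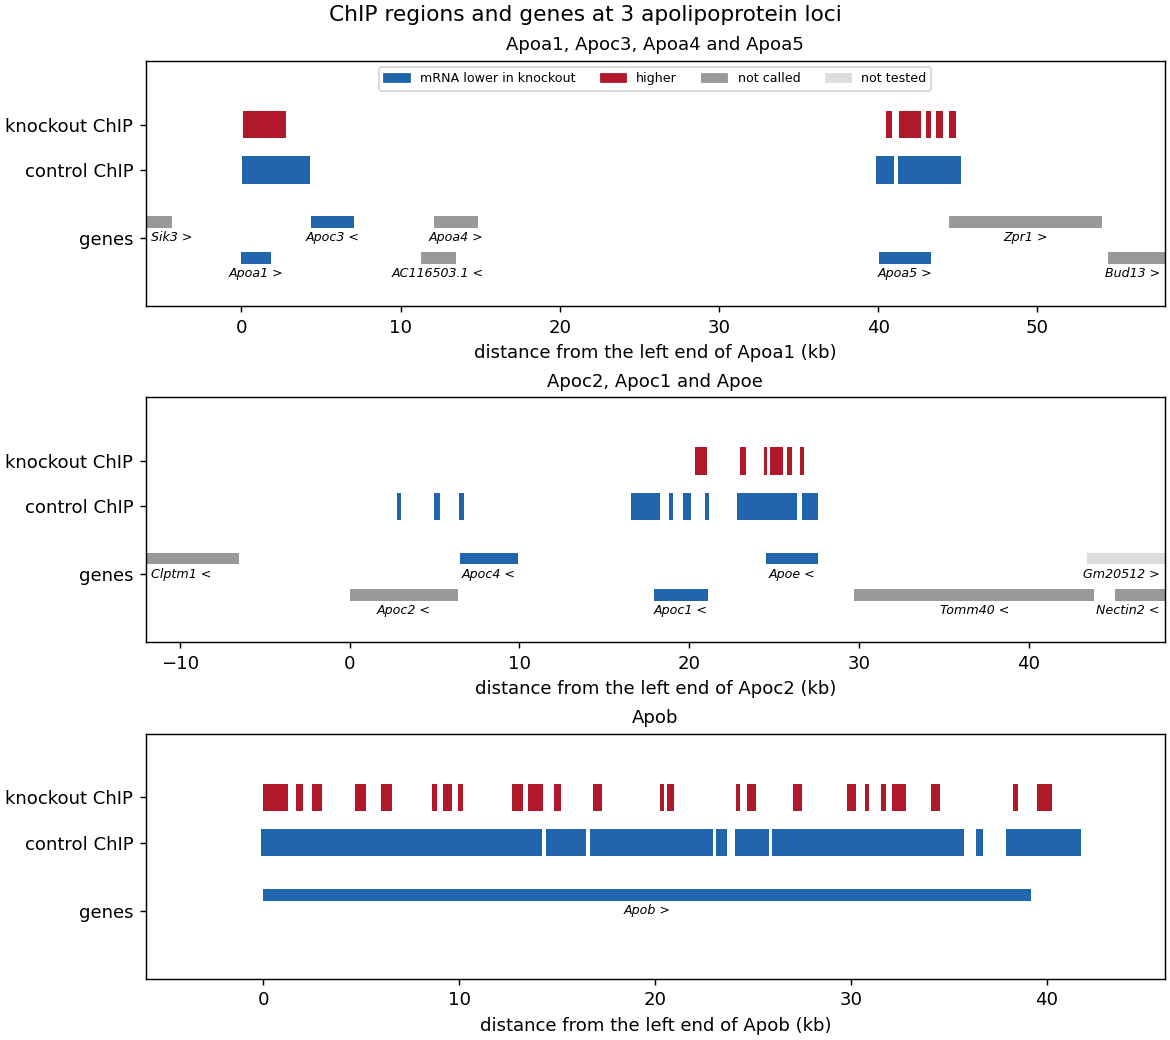
ChIP regions of the knockout library (red, upper row) and the control library (blue, middle row) above the genes, by distance in kb from the left end of Apoa1, Apoc2 and Apob, with genes blue where their mRNA was called lower in knockout cells and grey where it was not called; arrows after the names give the strand. Control regions over Apob are long blocks (up to 14307 bases) and knockout regions there are 23 short ones, and neither library has a separate region between those over Apoa1 and those over Apoa5.

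Genes next to the apolipoprotein genes did not share one direction. Of 24 other genes within 50 kb of a member, 20 were tested, 5 were called lower and 2 higher by edgeR, and their median log2 fold change was 0.00. Over all genes tested, 13% were called lower and 12.6% higher. The count of lower neighbours was 3 with library size alone and when any library other than control replicate 1 was left out, and without control replicate 1 the counts were 6 lower and 8 higher. Of all genes tested, 4.08% were called lower and 50.9% higher with library size alone, and 16% and 15.3% without control replicate 1. On chromosome 9 the genes around the cluster were not called: Sik3, upstream of Apoa1, had 0.04, Zpr1, whose start lies 1145 bases beyond Apoa5, had -0.81, Bud13 had 0.24 and 4931429L15Rik had 1.73. Without control replicate 1 Zpr1 was called lower at -0.33, and Bud13 and 4931429L15Rik were called higher at 0.96 and 3.57. With library size alone Sik3 (0.63) and 4931429L15Rik (2.36) were called higher. The antisense transcript AC116503.1 had -1.17 and was not called. On chromosome 7, Apoc4, a minor apolipoprotein between Apoc2 and Apoc1, was called lower (-1.08 on the log2 scale, adjusted p = 0.00302 by edgeR), and Gm44805 also covers most of its span. Clptm1, Tomm40, Nectin2 and Relb on the same chromosome, at 0.14, 0.26, -0.03 and 0.05, were not called, but Clptm1 (0.73) and Tomm40 (0.86) were called higher with library size alone, and Tomm40 also without control replicate 1.

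Near Apoa2 on chromosome 1, Nr1i3, the xenobiotic receptor CAR, 4353 bases upstream, had 12, 36 and 13 counts in knockout libraries against 382, 860 and 612 in control libraries (log2 fold change -5.57 ± 0.51, edgeR adjusted p = 0.000789). Pcp4l1 (-0.70) and B4galt3 (-0.48) were also called lower there, but neither was called with library size alone (-0.12 and 0.11). Fcer1g, an Fc receptor chain of myeloid cells, was called higher (0.67). The call for Pcp4l1 was lost whichever library was left out, and those for B4galt3 and Fcer1g when any library other than control replicate 1 was. Tomm40l, Adamts4 and Ppox, at -0.70, 0.29 and -0.08, were not called, though without control replicate 1 Tomm40l was called lower and Adamts4 higher, at 1.69. The long non-coding transcript AC125041.1, 27587 bases from Apob, was called lower (-1.02). Prkca, a protein kinase C gene, was called higher (1.99). Its span overlaps the Apoh span of the count table but lies far from the RefSeq start-site window of Apoh.

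Other genes of lipoprotein biology were counted in lists beside the 10 members. Of 17 tested other apolipoprotein and high density lipoprotein genes, 7 were called lower and 3 higher by edgeR, with a median log2 fold change of -0.72. Apom, a carrier of sphingosine-1-phosphate on high density lipoprotein, and Pon1, an esterase on the same particle, were called lower at -1.73 and -1.51 on the log2 scale. Apobr, Apoo and Apol9a were called higher, at 1.44, 0.54 and 1.46. These 3 are in the list by their apolipoprotein names, and whether their products are part of lipoprotein particles was not examined here. Apobr was also low in level, with means of 3.47 CPM in knockout and 1.27 CPM in control libraries. Without knockout replicate 3 only 1 gene of this list was called higher; Apol9a was then not called, nor without knockout replicate 2, and Apoo was called only without knockout replicate 2 or control replicate 1 when 1 library was left out. Of 22 genes of lipoprotein assembly and secretion, 9 were called lower and 2 higher (median -0.46), among them P4hb, a subunit of the microsomal triglyceride transfer protein complex (-0.91), Ces1d, a lipase that mobilises stored triglyceride (-1.56), and Mia3, an export factor of the endoplasmic reticulum (-0.65). Dgat1, which makes triglyceride, and Acat2, counted in this list although it encodes a cytosolic thiolase, were called higher at 0.49 and 0.77. The call for Acat2 was lost when any library other than knockout replicate 1 was left out. That for Dgat1 was lost when any library other than knockout replicate 2 or control replicate 1 was left out. Leaving out 1 library gave 4 to 10 lower and 0 to 2 higher in this list, with 4 lower without knockout replicate 1 or 3 and 0 higher without knockout replicate 3 or control replicate 2 or 3.

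Of 23 tested genes that act on the particles after secretion, 3 were called lower and 1 higher (median 0.08): the hepatic lipase gene Lipc (-0.98), the remnant receptor gene Lrp1 (-0.89) and the syndecan gene Sdc4 (-2.18; -1.66 without control replicate 1) were lower. The count called higher was 3 without knockout replicate 3 or without control replicate 1. Lpl, for lipoprotein lipase itself, had 121 ± 9.91 CPM in knockout libraries and 13.4 ± 0.918 CPM in control libraries (SD, n = 3 each), a log2 fold change of 3.18 ± 0.12 (adjusted p = 5.09e-05, edgeR). Lpl was thus higher while its inhibitor Apoc3 and its promoter Apoa5 were lower in the same libraries. Lpl is also expressed by macrophages, whose marker sum was higher in knockout libraries as given above, and the part of these cells in the Lpl value was not tested.

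Among 32 tested transcription factors known to act on apolipoprotein genes, 13 were called lower and 1 higher, with a median of -0.47. Leaving out 1 library gave 8 to 17 lower, the 8 without control replicate 2, and 4 higher without control replicate 1 but 0 without any of the other libraries. Nr1i3, Cebpa, a C/EBP factor of mature hepatocytes (-1.28), and Rxra, a shared partner of nuclear receptors (-1.18), were the lower ones with the smallest adjusted p. Of 28 other Mediator subunits 1 was called lower, Med11 (-0.82), and 2 higher, Med28 (0.63) and Med13 (0.49), with a median of -0.04, and these counts were 0 to 2 in either direction when 1 library was left out. Hepatocyte markers had a median of -1.59, below the -0.84 of the apolipoprotein genes, and Alb, Cyp2e1 and Serpina1a were called lower at -2.21, -2.79 and -1.58 on the log2 scale. Macrophage markers had a median of 0.80, with Mpeg1, Cd5l and C1qb called higher at 2.18, 0.97 and 0.76. Endothelial, stellate and cholangiocyte lists had medians of 0.43, 0.57 and 0.30, with 1 gene called higher in the first, Lyve1 (2.18), 1 in the second, Col1a2 (0.89, not called when any library other than control replicate 3 was left out), and 0 in the cholangiocyte list, where 1 gene was higher at an unadjusted p under 0.05 and DESeq2 called 0; no gene of these 3 lists was called lower by edgeR or DESeq2 or had a lower value at an unadjusted p under 0.05. Sox9, the cholangiocyte marker with the highest mean, was at -1.62 and was not called. That mean rests on control replicate 1, with 130 CPM against 12.1 and 15.8 CPM in control replicates 2 and 3. Without control replicate 1 the log2 fold change of Sox9 was 0.29.

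**Figure D5:**
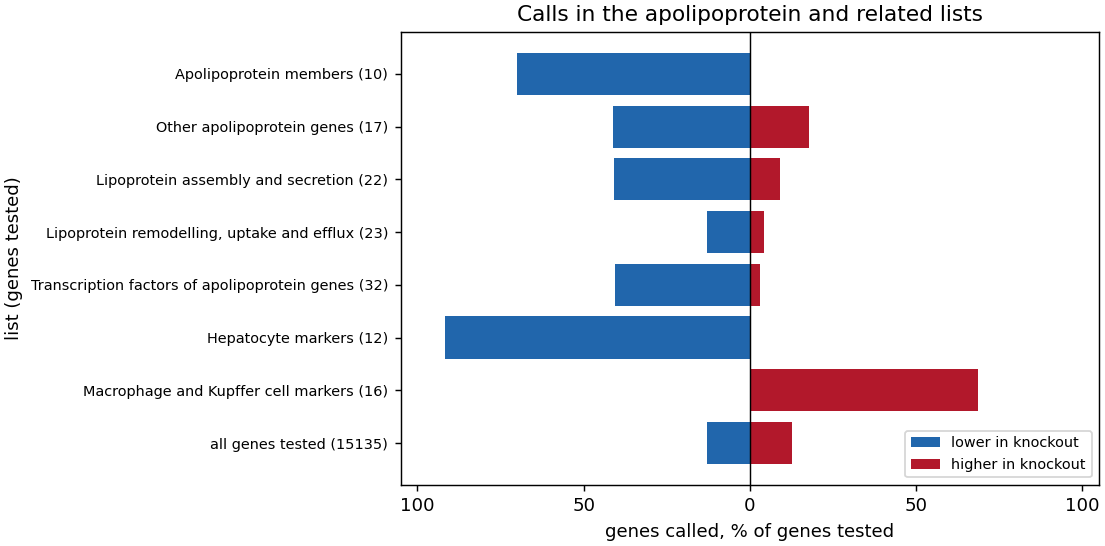
Percent of tested genes called lower (blue, left of 0) and higher (red, right of 0) in knockout cells by edgeR, for the 10 apolipoprotein genes, 6 related lists and all 15135 genes tested, with the number tested in brackets. The apolipoprotein bar (7 of 10 lower) lies between that of the hepatocyte markers (11 of 12 lower) and those of the other lipoprotein lists.

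With library size alone the calls of each list moved towards higher: to 3 lower and 5 higher for the other apolipoprotein genes, 3 and 7 for assembly and secretion, 2 and 15 for remodelling, uptake and efflux, 6 and 10 for the transcription factors, and 0 and 17 for the Mediator subunits. The hepatocyte markers had 9 lower and 0 higher, and the macrophage markers 0 lower and 15 higher, under that scaling, and the endothelial, stellate and cholangiocyte markers 0 lower and 10, 6 and 2 higher, where the median of all genes was 0.60.

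Across the 6 libraries, 8 of the 10 genes correlated with the average standardised profile of the 10 members, an average that includes each gene itself. Their Pearson r was from 0.864 for Apoh to 0.993 for Apoa2 and Apoc3, whereas Apoa4 and Apoc2 ran against the average with -0.773 and -0.384. Standardising removes the size of a change, and the log2 fold change of Apoh was -0.06. The genes outside the family whose log2 CPM was most like that average, among 1622 genes with a mean of at least 100 CPM, were Rpsa, Hdgf, Rpl27a, Naca and Rpl4, with r from 0.997 to 0.998. Rpsa, Rpl27a and Rpl4 encode ribosomal proteins. The 6 points fall into the 2 genotypes and share their libraries' scaling, so these r values describe the profiles and carry no test.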

How the data were processed

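RNA of mouse primary hepatocytes was measured in 3 knockout and 3 control libraries, and ChIP in 1 library per genotype. Groups and replicate numbers come from the sample titles. Counts per Ensembl gene were deposited as whole numbers, with mm10 positions; HISAT2 2.1.0, Bowtie2 2.2.3 and HTSeq 0.6.0 are named in the submitters' processing notes, without their roles, and the sources used here give no strand setting. The authors' comparison in the same deposited table has a fold (ratio) with its log2, plus raw and adjusted p-values, and its deposited column of mean normalized signal was not used. The ChIP lists were deposited by the authors as 1 narrowPeak file per library, with a score, a fold over background, and a −log10 p and a −log10 q per row; the submitters' processing notes name BWA, SAMtools, MACS2, deepTools and DESeq2, and the sources used here do not mention an input library.

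Counts were filtered with filterByExpr (minimum 10, total 15), which kept 15135 of 27277 genes, scaled by TMM and tested for genotype with edgeR 4.0.16 (R 4.3.3) by its robust quasi-likelihood test, two-sided, with Benjamini-Hochberg adjustment over all genes tested. Calls were made at an adjusted p under 0.05, and replicate libraries varied by a common biological coefficient of 0.235. CPM uses TMM-scaled library sizes. Transcript lengths were not used here, so levels are not compared between genes. DESeq2 1.42.0, 3 other scalings, no filter, a replicate block and leaving out each library were the alternatives. Counts of 22191786 to 26595249 per library leave counting error largest, among the members, for Apoc2. Single values were compared by an exact permutation test (SciPy 1.17.1). Overlapping ChIP rows were merged, and a region belongs to a gene at an overlap of at least 1 base. Sequences are from the RefSeq promoter table of GRCm38.p6. Beside the members and Med19, the genes named are the tested genes within 50 kb of a member, of each of 10 lists the 3 called genes with the smallest adjusted p in each direction (all where 5 or fewer, the most abundant where none), and the 5 genes most like the members' mean log2(CPM + 1) profile. A few results within this rule are not reported here. Members and lists were chosen with earlier results of these data known.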

Additional observations from a re-analysis of the deposited data

How the results depend on the processing

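Calls for Apoa2, Apoa5, Apoc3 and Apoe held under all 12 alternatives, and those for Apoa1, Apob and Apoc1 under 11, the exception being library size alone. With library size alone 4 members were called lower and 2 higher, 617 genes in all lower and 7705 higher, 3 neighbours lower and 7 higher, and, over the 10 lists, 23 genes lower and 87 higher, since this scaling moves every gene up by about the same amount. DESeq2 and the fit without control replicate 1 each called 1 member higher, Apoa4. Upper-quartile factors called 3 neighbours lower. A window of 20 kb gave 2 neighbours lower and one of 100 kb gave 5 higher. When 1 library was left out, 7 members were called lower each time and 0 to 1 higher; all genes called lower were 1104 to 2514 and higher 1119 to 2407; neighbours 3 to 6 lower and 1 to 8 higher, with the highest of these counts without control replicate 1; list genes 29 to 52 lower and 14 to 28 higher; Med19 had -1.84 to -1.30. The difference in the members' summed share of counts was -1.40 to -1.10 percentage points, and -1.34 with nuclear genes as the denominator. The cluster ratio difference was -0.126 to 0.133 when 1 library was left out, positive (0.0354 and 0.133) without knockout replicate 1 or control replicate 1, and -0.350 with the mean of log2 counts; the cause was not tested. With −log10 q of at least 5, 5 kb added on each side, or summits alone, 4 to 7 members had a knockout region and 8 to 9 a control region. The shares of all genes under these changed rules are not given here, so these counts cannot be set against a background.

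Whether the replicate numbers pair the libraries is not known. Same-numbered libraries had correlations of 0.11, 0.0521 and 0.0937 between their deviations from the group means. These are low, though each library correlated best with its own number, a hint from the data and not the design. With the replicate block 7 members were called lower and 0 higher, 1755 genes in all lower and 1713 higher, and 3 neighbours lower; Nectin2 was at 0.00 and AC116503.1 at 0.24.

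Among the values that changed sign, B4galt3 was called lower under TMM scaling and Apoh higher with library size alone, and the others were not called by edgeR in either fit. With library size alone Apoh was at 0.53, B4galt3 at 0.11, Nectin2 at 0.57 and Ppox at 0.50. With upper-quartile factors Apoh was at 0.02 and Nectin2 at 0.05. Over the fits that each left out 1 library the ranges were -0.11 to 0.76 for Apoc2, -0.25 to 0.64 for Relb, -0.10 to 1.69 for Adamts4, -0.03 to 0.96 for Bud13, -0.08 to 0.20 for Sik3, -0.28 to 0.38 for Nectin2, -0.27 to 0.02 for Ppox, -2.12 to 3.53 for AC116503.1 and -2.10 to 0.29 for Sox9. The end of the range against the reported sign came without control replicate 1 for Apoc2, Nectin2, AC116503.1 and Sox9.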
